A study of Mus musculus with 12 samples.

Results

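Lysosomal hydrolase and membrane protein genes were followed in mouse cortical neural progenitor cells after 2 h of mTOR inhibition. The 40 genes were taken by name from the 53351 genes of the deposited table, with subunits of the vacuolar ATPase left out. All 40 were found, and all 40 passed the filter on low values that left 20240 genes to test. They comprise 7 proteases, 11 glycosidases, 5 sulfatases, 4 lipid and acyl hydrolases, 4 soluble cofactors and 9 membrane proteins.

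The cells were wild-type primary progenitors from the cortex of mouse embryos at E13.5, dissociated and kept in culture overnight with bFGF and EGF. They received 250 nM Torin1, an inhibitor of the mTOR kinase, or DMSO, its solvent, for 2 h. Before lysis every culture was given cycloheximide at 100 ug/ml for 5 min, which stops ribosomes where they are. A 10% share of the lysate served as total mRNA, and the remainder was run on a sucrose gradient, from which mRNAs with more than 3 ribosomes were collected as polysome mRNA. There are thus 4 groups among the 12 libraries, namely total mRNA from Torin1 cells, total mRNA from DMSO cells, polysome mRNA from Torin1 cells and polysome mRNA from DMSO cells. Each group holds 3 libraries, which the labels call biological replicates. The labels do not say whether these came from separate litters.

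Lysosomes break down proteins, glycans and lipids with acid hydrolases that are made at the endoplasmic reticulum, tagged with mannose 6-phosphate and carried to the organelle. Loss of single hydrolases or membrane proteins causes lysosomal storage disorders, many of which damage the developing or ageing brain. The kinase complex mTORC1 is activated on the lysosomal surface and phosphorylates the transcription factors TFEB and TFE3, which keeps them in the cytoplasm. When mTORC1 is inhibited they enter the nucleus and bind the CLEAR motif (coordinated lysosomal expression and regulation), an extended E-box with CACGTG at its centre, in promoters of lysosomal genes.

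RefSeq promoter windows of 300 bases, from 250 before to 50 after the start of transcription (GRCm38.p6), were at hand for 36 of the 40 genes. The motif CACGTG, which reads the same on both strands, stood in windows of 14 of the 36 genes, or 38.9%, against 8.09% of the 27025 genes with windows in RefSeq's table. The longer palindrome TCACGTGA, which contains it, stood in windows of 6 of the 36 genes, or 16.7%, against 1.12% of all genes with a window. The 10-base palindrome of the CLEAR motif, which adds a G before and a C after TCACGTGA, stood in that of 1 of the 36 genes, Cln3, or 2.78%, against 0.370% of all genes with a window. The stretches around the palindrome in its 6 promoters, and around CACGTG in those of Naglu and Lamp1, are printed because the results below turn on these genes. Capitals mark TCACGTGA or, where only that matched, CACGTG. Each stretch runs 5′ to 3′ on the strand of its gene, and strand is given as + or -.
Ctsa, chr2:164833740-164833802, +: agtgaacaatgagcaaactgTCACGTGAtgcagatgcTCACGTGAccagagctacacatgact
Ctsd, chr7:142387899-142387946, -: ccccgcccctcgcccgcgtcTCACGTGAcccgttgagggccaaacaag
Gla, chrX:134601173-134601253, -: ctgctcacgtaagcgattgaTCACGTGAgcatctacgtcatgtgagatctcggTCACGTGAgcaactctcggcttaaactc
Mcoln1, chr8:3500428-3500500, +: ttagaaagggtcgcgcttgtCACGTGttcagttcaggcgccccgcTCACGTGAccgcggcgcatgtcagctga
Clcn7, chr17:25133356-25133420, +: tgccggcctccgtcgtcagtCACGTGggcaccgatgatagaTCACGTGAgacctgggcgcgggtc
Cln3, chr7:126583330-126583405, -: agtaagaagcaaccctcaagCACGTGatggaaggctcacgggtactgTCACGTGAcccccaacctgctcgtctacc
Naglu, chr11:101070001-101070046, +: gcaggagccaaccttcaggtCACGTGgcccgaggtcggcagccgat
Lamp1, chr8:13159080-13159171, +: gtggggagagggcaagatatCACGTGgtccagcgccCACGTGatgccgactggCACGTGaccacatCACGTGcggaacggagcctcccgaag

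Positions are counted from the start on which each window was built, and the 36 genes had 40 windows. Ctsa holds the palindrome at -13 and again at 5, and Gla at -228 and -195. The printed stretches of Ctsa and Cln3 lie inside the annotated spans of these genes. For Ctsa the span is 164832872 to 164841032, and for Cln3 it is 126571207 to 126585817. Their windows were thus not built on the outermost annotated start. The window of Ctsd holds a further CACGTG at -245. Lamp1 carries 4 copies of CACGTG within 61 bases before its start, the first base of the farthest at -61 and of the nearest at -15. Other windows with CACGTG belonged to Ctsf, Ctsl, Gaa, Glb1, Sgsh and Arsa. Counted by genes with a window, 4 of 6 proteases, 4 of 11 glycosidases, 2 of 4 sulfatases and 4 of 8 membrane proteins had the motif. None of the 3 lipid and acyl hydrolases and none of the 4 soluble cofactors with a window had it. High shares were not particular to these genes. Across the other lysosomal lists, read below, CACGTG stood in 12% (autophagy) to 42.9% (mannose 6-phosphate sorting) of genes with a window. TCACGTGA stood in 0% (regulators and autophagy) to 21.4% (vacuolar ATPase and mannose 6-phosphate sorting). The 10-base palindrome stood in 14.3% of sorting genes and 12.5% of tethering and position genes, and in 0% of the remaining lists. A match to these letters is a description of the sequence, and binding was not measured.

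Values are the deposited abundances after scaling between libraries, in parts-per-million (ppm) of a library. The files do not say whether they were corrected for transcript length. Folds are therefore read within a gene, and sums over a list are compared only between libraries. Transcript length may enter the weight of each gene in a sum, and any ordering of genes by level. Column totals of the deposited table ran from 14341674 to 19201406, and within groups Pearson's r across 9350 genes, which are not independent replicates, lay between 0.963 and 0.984. The progenitor markers Sox2 (90.4 to 128 ppm over the 12 libraries) and Pax6 (43.2 to 63.4 ppm) were present in every library. Torin1 replicate 2 of total mRNA stood apart from the other total libraries, with 2062 ppm of the small nuclear RNA Rn7sk against 38.2 to 181 ppm in the other 5. The count of members that rose in total mRNA without this library is given below. Annotated spans of Ctsb, Ctsz, Glb1, Manba, Sgsh, Galns, Arsa, Arsb, Asah1, Smpd1, Lamp2, Scarb2, Clcn7, Npc1 and Cln3, and others named below, overlap another annotated gene. Where strand was not used the reads of such pairs cannot be told apart. In bulk samples fewer cells of a type and less RNA per cell cannot be told apart.

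Torin1 was followed by higher mRNA of a few hydrolases and cofactors and of no membrane protein among the 40. In total mRNA 4 genes rose and 0 fell at an adjusted p of 0.05 (limma, Benjamini-Hochberg over all genes), where 3.33% of the 20240 genes rose and 4.15% fell. They were Ctsa, Hexa, Naglu and Grn. In polysome mRNA 7 rose and 0 fell, where 4.40% of all genes rose and 6.27% fell, namely Ctsa, Ctsd, Naglu, Gla, Lipa, Ppt1 and Psap. Ctsa and Naglu were the 2 that rose in both, where 2.14% of all genes did. At an unadjusted p of 0.05, 14 members passed in total mRNA and 12 in polysome mRNA, against 21.2% and 24.5% of all genes.

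The log2 folds of Torin1 over DMSO were positive in 30 of the 40 genes in total mRNA and in 32 in polysome mRNA, and 27 were positive in both. Their median was 0.13 in total mRNA and 0.16 in polysome mRNA, against -0.00 and -0.01 over all genes tested. A positive median was not particular to the 40. Over the 8 lists of cell type markers read below, medians ran from 0.16 to 0.57 in total and from 0.02 to 0.48 in polysome mRNA. Other lysosomal lists had medians from -0.01 to 0.19 in total and from -0.04 to 0.19 in polysome mRNA. All genes tested were not matched to the 40 for abundance. In total mRNA all 3 Torin1 libraries lay above all 3 DMSO libraries for 17 members and below them for 2, where 15.6% of all genes lay above and 17.7% below. In polysome mRNA 11 lay above and 1 below, where 11.0% of all genes lay above and 13.4% below. The scaled abundances of the 40 genes summed to 1384, 1332 and 1367 ppm in total Torin1 libraries, against 1231, 1236 and 1265 ppm in total DMSO libraries. In polysome mRNA the sums were 1860.4, 1732 and 1757 ppm with Torin1, against 1613, 1651 and 1652 ppm with DMSO.

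**Figure D1:**
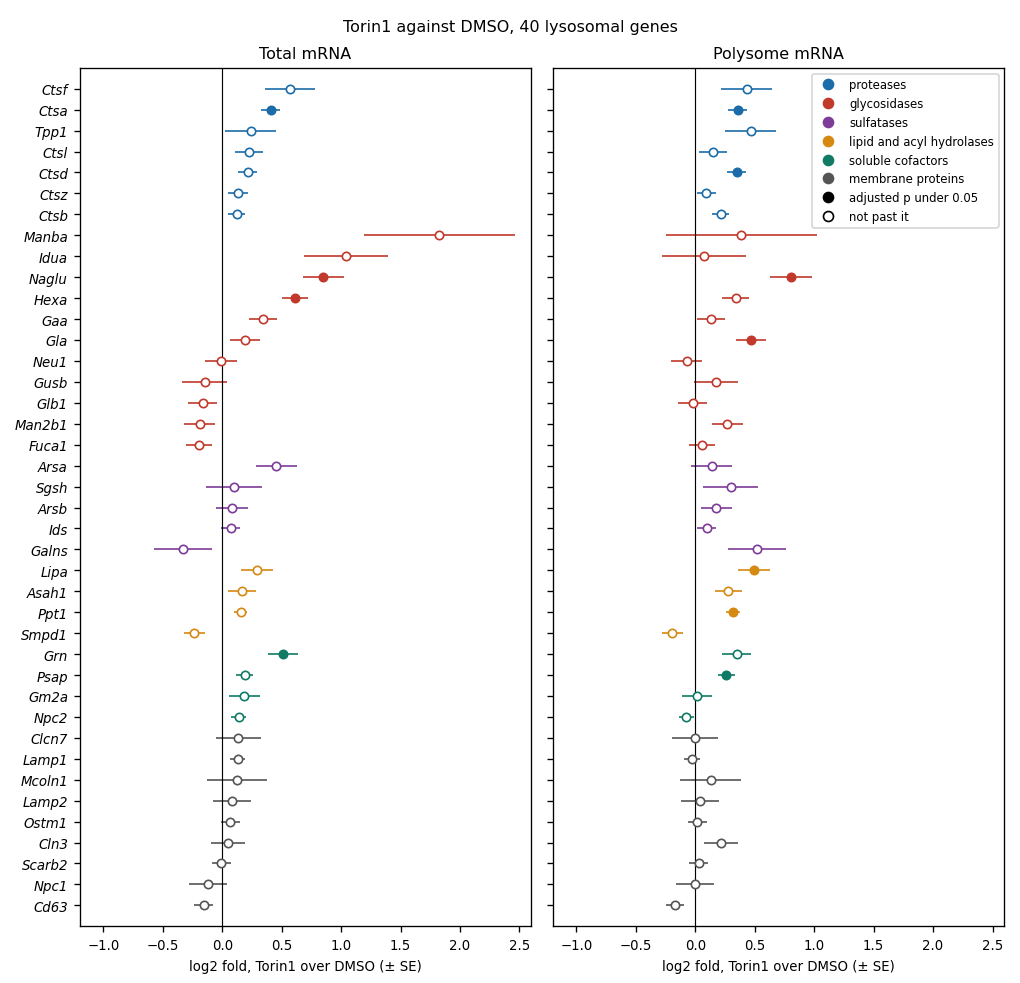
Log2 fold of Torin1 over DMSO for each of the 40 genes in total mRNA (left) and polysome mRNA (right), grouped by class, as points with standard errors. Filled points passed an adjusted p of 0.05, 4 on the left and 7 on the right, and all 11 lie to the right of 0, while the 9 membrane proteins at the bottom are open in both panels.

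These counts depend on single libraries and on the scaling. Without total Torin1 replicate 2, and likewise without total DMSO replicate 1, 2 members rose in total mRNA. In polysome mRNA 3 rose without polysome DMSO replicate 1, and likewise without polysome Torin1 replicate 2, and 4 rose without polysome DMSO replicate 2. With scaling to the column total alone 1 member rose in total mRNA and 14 in polysome mRNA, where this scaling moves the median of all genes by 0.23 in polysome mRNA. When the 2 polysome groups were fitted alone, 0 members passed. The main fit shares 1 spread per gene over the 4 groups, so the polysome calls also rest on the total libraries.

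Among the proteases Ctsa rose in both kinds of mRNA. It encodes cathepsin A, a carboxypeptidase that also protects beta-galactosidase and neuraminidase 1 in the lysosome. In total mRNA it stood at 38.2, 36.3 and 38.7 ppm in Torin1 libraries, against 27.6, 29.9 and 27.7 ppm in DMSO libraries. Its polysome mRNA measured 46.1, 45.1 and 44.1 ppm with Torin1, against 31.0, 38.3 and 36.7 ppm with DMSO. The Torin1 libraries were all above the DMSO libraries in both, with log2 folds of 0.41 ± 0.08 (SE, adjusted p = 0.0102) and 0.36 ± 0.08 (adjusted p = 0.0140). Its annotated span on chromosome 2, 164832872 to 164841032, overlaps Neurl2 and Pltp, and the sources used here do not say whether reads were counted by strand. With scaling to the column total alone the total mRNA difference of Ctsa had an adjusted p of 0.0979.

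Ctsd encodes cathepsin D, the main aspartic protease of the lysosome (chromosome 7, 142375910 to 142387827). Polysome libraries held 148, 132 and 143 ppm with Torin1, against 100.0, 116 and 118 ppm with DMSO, with no overlap, and the log2 fold was 0.35 ± 0.08 (adjusted p = 0.0161). In total mRNA it had 84.6, 80.6 and 86.2 ppm with Torin1, against 66.7, 77.1 and 73.1 ppm with DMSO, also without overlap, but the log2 fold of 0.21 ± 0.08 missed the threshold (adjusted p = 0.139). Without polysome DMSO replicate 1, the lowest of its group, the polysome difference had an adjusted p of 0.0687.

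Cathepsin B, a cysteine protease encoded by Ctsb, was measured at 142, 126 and 129.7 ppm in polysome Torin1 libraries, against 105, 119 and 119.8 ppm in polysome DMSO libraries. The 2 groups did not overlap, yet the log2 fold of 0.21 ± 0.07 did not pass (adjusted p = 0.0779). The other proteases, namely the cysteine cathepsins Ctsf, Ctsl and Ctsz and the tripeptidyl peptidase Tpp1, had folds between 0.09 and 0.57 in the 2 kinds of mRNA, and none passed. All 7 proteases had a positive fold in both, and their summed abundance was 319 ± 8.63 ppm in total Torin1 and 276 ± 14.3 ppm in total DMSO libraries (SD, n = 3 each). In polysome mRNA the sum was 504 ± 22.1 ppm with Torin1 and 425 ± 25.8 ppm with DMSO (SD, n = 3 each).

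Glycosidases remove sugars from glycoproteins, glycolipids and glycosaminoglycans, and 3 of the 11 passed in one kind of mRNA or both. Naglu, the alpha-N-acetylglucosaminidase that degrades heparan sulfate, had the highest fold of the 9 genes called. Its total mRNA stood at 3.67, 3.82 and 3.17 ppm in Torin1 libraries, against 1.76, 1.79 and 2.31 ppm in DMSO libraries, a log2 fold of 0.85 ± 0.18 (adjusted p = 0.0134). Polysome libraries had 4.19, 4.85 and 3.50 ppm with Torin1, against 2.37, 2.31 and 2.36 ppm with DMSO, a log2 fold of 0.81 ± 0.18 (adjusted p = 0.0126). The groups did not overlap in either comparison, and its levels were low in all 12 libraries. In total mRNA it kept its call without 2 of the 6 libraries left out in turn, and the highest adjusted p among the 6 was 0.0586. Naglu lies on chromosome 11 from 101070090 to 101077672.

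Hexa encodes the alpha subunit of beta-hexosaminidase, the enzyme lacking in human Tay-Sachs disease. Total libraries held 19.6, 19.8 and 18.5 ppm with Torin1, against 10.6, 13.0 and 14.5 ppm with DMSO, with no overlap. The log2 fold was 0.61 ± 0.11 (adjusted p = 0.00718), and the call held without each of the 6 libraries in turn. Polysome mRNA of Hexa was 28.0, 24.8 and 30.4 ppm with Torin1, against 22.2, 22.3 and 21.1 ppm with DMSO, again without overlap, with a log2 fold of 0.34 ± 0.11 (adjusted p = 0.0788). The span of Hexa on chromosome 9, 59539540 to 59565109, overlaps Tmem202.

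Gla, the alpha-galactosidase lacking in human Fabry disease, rose in polysome mRNA (chromosome X, 134588169 to 134601005). Polysome Torin1 libraries had 6.34, 7.40 and 8.31 ppm, against 4.78, 5.35 and 5.71 ppm in polysome DMSO libraries, a log2 fold of 0.47 ± 0.13 (adjusted p = 0.0381). Its total mRNA was 4.50, 4.80 and 4.65 ppm with Torin1, against 3.96, 4.05 and 4.20 ppm with DMSO, and the log2 fold of 0.19 ± 0.13 did not pass. The groups stood apart in both kinds of mRNA, but the polysome call held without only 1 of the 6 libraries, with an adjusted p of up to 0.137.

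The remaining 8 glycosidases did not pass in either kind of mRNA. Fuca1, the fucosidase that removes fucose from glycoproteins, measured 15.1, 16.2 and 19.6 ppm in total Torin1 libraries, against 18.0, 20.2 and 20.0 ppm in total DMSO libraries. In polysome mRNA it had 30.8, 31.4 and 25.5 ppm with Torin1, against 28.2, 26.6 and 29.1 ppm with DMSO, and the groups overlapped in both. The folds of Glb1, Gusb, Neu1, Man2b1 and Fuca1 in total mRNA lay between -0.20 and -0.01, so 5 of the 11 glycosidases were below 0 there. Manba, a beta-mannosidase, had a total log2 fold of 1.83 ± 0.64 (adjusted p = 0.115) from 0.946, 3.73 and 3.47 ppm with Torin1, against 0.524, 0.236 and 1.70 ppm with DMSO. It was low, uneven within both groups, and passed without total DMSO replicate 3 (adjusted p = 0.0367) and without total Torin1 replicate 1 (adjusted p = 0.0496). Idua, the iduronidase, had a total log2 fold of 1.04 ± 0.35 (adjusted p = 0.106), and its span overlaps Dgkq and Slc26a1. Gaa, the acid alpha-glucosidase that breaks down glycogen, had total and polysome log2 folds of 0.35 ± 0.12 and 0.13 ± 0.12.

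No sulfatase passed in either comparison. These 5 enzymes take sulfate groups off glycosaminoglycans and sulfatides. Ids, the iduronate sulfatase, measured 72.1, 68.9 and 75.3 ppm in total Torin1 libraries, against 71.1, 66.8 and 68.1 ppm in total DMSO libraries. In polysome mRNA it had 32.4, 39.1 and 33.7 ppm with Torin1, against 34.1, 33.5 and 30.6 ppm with DMSO, and the groups overlapped in both. The 95% intervals of its log2 fold ran from -0.10 to 0.24 in total and from -0.07 to 0.27 in polysome mRNA. Arsa, which acts on sulfatide in myelin, had a total log2 fold of 0.46 ± 0.17 (adjusted p = 0.145), and Galns had -0.33 ± 0.24 in total and 0.52 ± 0.24 in polysome mRNA. Of the sulfatases, 1 passed an unadjusted p of 0.05 in total mRNA and 0 in polysome mRNA, where 21.2% and 24.5% of all genes did.

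Among the lipid and acyl hydrolases, Ppt1 and Lipa rose in polysome mRNA. Ppt1, the palmitoyl-protein thioesterase lacking in human infantile neuronal ceroid lipofuscinosis, had 39.8, 41.9 and 41.0 ppm in polysome Torin1 libraries, against 33.8, 31.1 and 33.5 ppm in polysome DMSO libraries. Total mRNA of Ppt1 was 32.6, 32.6 and 32.8 ppm with Torin1, against 29.1, 29.9 and 29.0 ppm with DMSO. The groups did not overlap in either, and the log2 folds were 0.32 ± 0.06 in polysome mRNA (adjusted p = 0.00432) and 0.15 ± 0.06 in total mRNA (adjusted p = 0.139). The polysome call of Ppt1 held without each of the 6 libraries in turn. Its span on chromosome 4, 122836077 to 122859175, overlaps Cap1.

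Lipa, the lysosomal acid lipase that cleaves cholesteryl esters, had 5.22, 5.87 and 6.84 ppm in polysome Torin1 libraries, against 4.43, 3.89 and 4.34 ppm in polysome DMSO libraries (chromosome 19, 34492316 to 34527474). In total mRNA it had 4.20, 4.10 and 4.10 ppm with Torin1, against 3.34, 3.20 and 3.55 ppm with DMSO. Neither pair of groups overlapped, with log2 folds of 0.49 ± 0.13 in polysome (adjusted p = 0.0371) and 0.29 ± 0.13 in total mRNA (adjusted p = 0.235). The polysome call of Lipa held without 1 of the 6 libraries, with an adjusted p of up to 0.112, and under 7 of 9 other settings. Smpd1, the acid sphingomyelinase, ran the other way and did not pass, with 25.3, 22.7 and 26.4 ppm in total Torin1 libraries, against 31.4, 26.8 and 29.4 ppm in total DMSO libraries. Its polysome mRNA stood at 43.7, 40.3 and 36.5 ppm with Torin1, against 45.5, 45.7 and 46.3 ppm with DMSO. All Torin1 libraries were below all DMSO libraries in both, and the log2 folds were -0.24 ± 0.09 (adjusted p = 0.134) and -0.19 ± 0.09 (adjusted p = 0.189). Asah1, the acid ceramidase, had log2 folds of 0.17 ± 0.12 in total and 0.28 ± 0.12 in polysome mRNA, which did not pass.

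Of the soluble cofactors Grn rose in total mRNA and Psap in polysome mRNA. Grn encodes progranulin, a secreted and lysosomal protein whose loss in humans causes frontotemporal dementia or neuronal ceroid lipofuscinosis (chromosome 11, 102430507 to 102436809). Total libraries held 27.4, 27.2 and 28.9 ppm with Torin1, against 18.8, 21.3 and 18.5 ppm with DMSO, with no overlap and a log2 fold of 0.51 ± 0.12 (adjusted p = 0.0288). In polysome mRNA it measured 34.5, 29.2 and 26.6 ppm with Torin1, against 20.1, 23.1 and 28.1 ppm with DMSO, where the groups overlapped and the log2 fold was 0.35 ± 0.12 (adjusted p = 0.103). The total mRNA call of Grn held without 1 of the 6 libraries, with an adjusted p of up to 0.102, and under 6 of 9 other settings, with an adjusted p of up to 0.0950.

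Psap, the precursor of the saposins that present sphingolipids to their hydrolases, had 290.1, 265 and 236 ppm in polysome Torin1 libraries, against 216, 227 and 215 ppm in polysome DMSO libraries (chromosome 10, 60277628 to 60302600). In total mRNA it had 222, 225 and 224 ppm with Torin1, against 191, 206 and 194 ppm with DMSO. The groups stood apart in both, with log2 folds of 0.26 ± 0.07 in polysome (adjusted p = 0.0391) and 0.19 ± 0.07 in total mRNA (adjusted p = 0.154). The polysome call of Psap held without 1 of the 6 libraries, with an adjusted p of up to 0.122. The sterol carrier Npc2 had log2 folds of 0.14 ± 0.06 in total and -0.08 ± 0.06 in polysome mRNA, and the GM2 activator Gm2a had 0.19 ± 0.13 and 0.01 ± 0.13, and none of these passed.

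**Figure D2:**
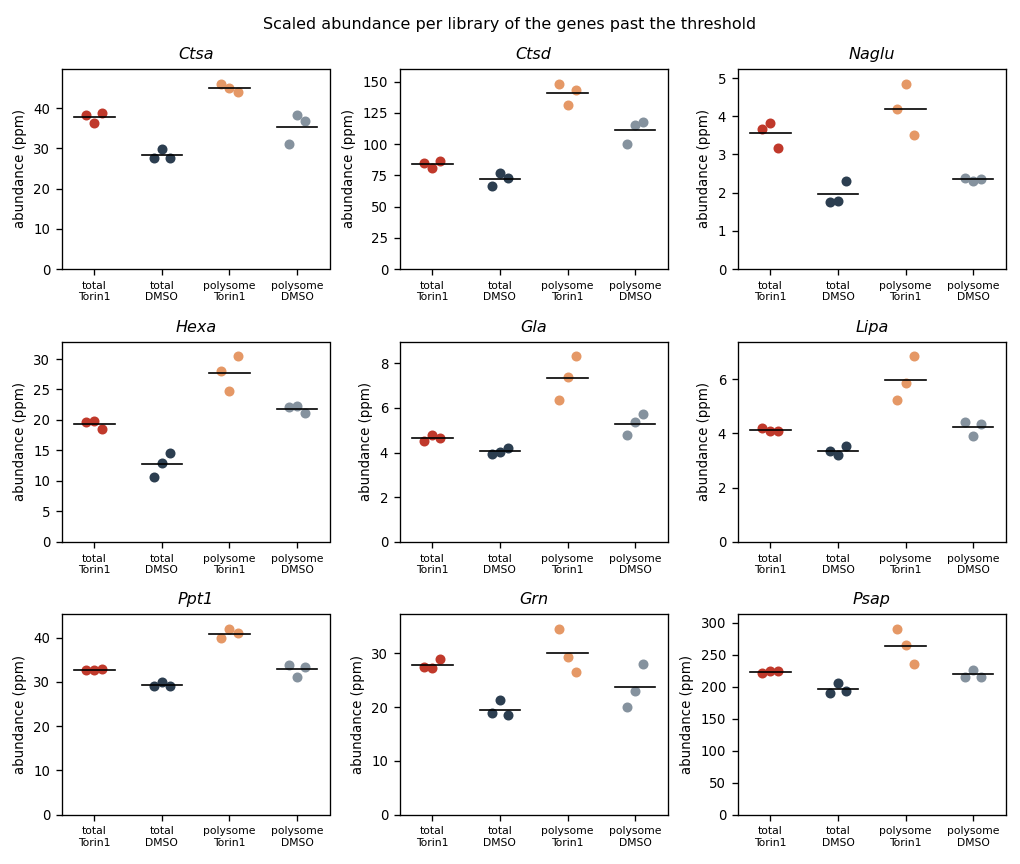
Scaled abundance in ppm, on axes that start at 0, of the 9 genes that passed in total or polysome mRNA, with a point per library and a bar at the mean of each group of 3. In 8 of the 9 panels the Torin1 points lie above the DMSO points in both kinds of mRNA, and for Grn the polysome groups overlap.

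None of the 9 membrane proteins passed in total or polysome mRNA. Even at an unadjusted p of 0.05, 0 of them passed in either (limma), where 21.2% and 24.5% of all genes did. Lamp1, a common marker of the lysosomal membrane, measured 152, 131 and 150.4 ppm in total Torin1 libraries, against 129, 137 and 129 ppm in total DMSO libraries. Its polysome mRNA was 189, 181 and 184 ppm with Torin1, against 187, 190.4 and 187 ppm with DMSO. Both pairs of groups overlapped, and the 95% intervals of the log2 fold ran from -0.01 to 0.27 in total and from -0.17 to 0.11 in polysome mRNA. Its promoter holds 4 copies of CACGTG, as printed above.

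Mcoln1, the calcium channel TRPML1, varied widely within groups, with 82.8, 68.1 and 53.1 ppm in total Torin1 libraries, against 73.3, 42.9 and 73.4 ppm in total DMSO libraries. In polysome mRNA it had 116, 76.0 and 60.7 ppm with Torin1, against 80.7, 76.7 and 66.1 ppm with DMSO. The interval of its total log2 fold, from -0.43 to 0.68, holds the folds of 3 of the 4 genes that rose there. Npc1, the cholesterol exporter of the lysosomal membrane, had 6.81, 7.77 and 7.15 ppm in total Torin1 libraries, against 7.99, 7.96 and 7.64 ppm in total DMSO libraries. Polysome libraries of Npc1 held 4.76, 6.19 and 3.73 ppm with Torin1, against 4.60, 4.83 and 5.01 ppm with DMSO, and the groups overlapped in both. The tetraspanin Cd63 had log2 folds of -0.16 ± 0.08 in total and -0.17 ± 0.08 in polysome mRNA, and its total Torin1 libraries (75.3, 71.3 and 82.6 ppm) were all below its total DMSO libraries (86.2, 85.3 and 83.4 ppm). The folds of Lamp2, Scarb2, Clcn7, Ostm1 and Cln3 lay between -0.01 and 0.21. The membrane protein sum was 443 ± 19.9 ppm in total Torin1 and 430.3 ± 16.0 ppm in total DMSO libraries, and 593 ± 26.7 ppm in polysome Torin1 and 603 ± 10.6 ppm in polysome DMSO libraries (SD, n = 3 each).

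Set beside the promoters, 3 of the 6 genes with TCACGTGA passed in total or polysome mRNA, namely Ctsa, Ctsd and Gla, and 6 of the 30 with a window but without it. The 3 with the palindrome that did not pass, Mcoln1, Clcn7 and Cln3, all encode membrane proteins. For the shorter CACGTG, 4 of 14 genes with it and 5 of 22 without it passed. These shares are given as a description without a test. The genes that passed all rose. Of all genes tested, 3.33% rose in the total comparison, 4.40% in the polysome comparison and 2.14% in both. The share of all genes that passed in either comparison was not worked out, nor that of genes with these motifs outside the 40. Whether the motifs go with a rise was therefore not tested.

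Whether Torin1 changed the association of these mRNAs with polysomes was asked by the difference between the polysome and the total log2 fold. Of the 40 genes 0 passed for this difference (limma), where 0.707% of all genes passed, and 3 passed an unadjusted p of 0.05, where 5.71% of all genes did. Those were Man2b1, a lysosomal alpha-mannosidase, with 0.46 ± 0.18, Galns with 0.85 ± 0.35 and Npc2 with -0.21 ± 0.09 on the log2 scale. Among the 9 genes that passed in one kind of mRNA or both, the difference ran from -0.27 ± 0.16 for Hexa to 0.28 ± 0.18 for Gla. So the genes called in only one kind of mRNA are not shown to differ between the 2 kinds. The median difference over the 40 genes was 0.01, against 0.00 over all genes. The scaling brings the median fold of all genes near 0 in each kind of mRNA. A change in polysome association shared by most genes therefore cannot be seen in this comparison. With scaling to the column total alone the median difference was 0.32 over the 40 genes and 0.29 over all genes. Under that scaling 0 members passed.

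Polysome loading, the log2 ratio of polysome over total mRNA within a treatment, asked which of these mRNAs sat on several ribosomes more or less than their share of total mRNA. With Torin1, 21 of the 40 genes were higher in polysome than in total mRNA and 3 were lower, where 20.7% of all genes were higher and 19.1% lower. With DMSO, 18 were higher and 2 lower, where 21.8% of all genes were higher and 19.3% lower. The median loading of the 40 was 0.27 with either treatment, against -0.02 and -0.00 over all genes. In all, 17 genes, or 42.5%, were higher and 2, or 5%, lower with both treatments, where 17.7% of all genes were higher and 15.4% lower with both. Loading with Torin1 and loading with DMSO correlated across the 40 genes with a Pearson's r of 0.80 and a Spearman's rho of 0.82, as a description over genes that share the same libraries. Loading depends on the scaling between polysome and total libraries. Dividing by the column total alone moves the median loading of all genes by -0.10 with Torin1 and by -0.36 with DMSO. Then 14 were higher and 5 lower with Torin1, and 4 were higher and 7 lower with DMSO.

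Cd63 had the highest loading with either treatment, at 176, 155 and 185 ppm in polysome against 71.3 to 82.6 ppm in total Torin1 libraries. With DMSO it had 201, 180.5 and 199 ppm in polysome against 83.4 to 86.2 ppm in total libraries. Its log2 ratios were 1.17 ± 0.08 with Torin1 (adjusted p = 1.51e-06) and 1.18 ± 0.08 with DMSO (adjusted p = 1.05e-06). Ctsl, a cysteine cathepsin, followed, with 96.2, 106 and 139 ppm in polysome against 63.1, 54.9 and 62.4 ppm in total Torin1 libraries. With DMSO it had 100.2, 98.8 and 105 ppm in polysome against 47.6, 50.2 and 56.4 ppm in total libraries. The log2 ratios of Ctsl were 0.90 ± 0.12 with Torin1 and 0.98 ± 0.12 with DMSO. Next by log2 ratio came Gusb, the beta-glucuronidase (0.83 ± 0.19), and Fuca1 (0.79 ± 0.11) with Torin1, and Hexa (0.79 ± 0.11) and Ctsz (0.68 ± 0.08) with DMSO, and all passed. Gusb had 9.80, 7.01 and 8.54 ppm in polysome against 5.04, 3.90 and 5.16 ppm in total Torin1 libraries. Ctsz, a carboxypeptidase among the cathepsins, had 45.2, 43.2 and 49.0 ppm in polysome against 27.5, 28.0 and 30.1 ppm in total DMSO libraries. Polysome and total libraries did not overlap for either.

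Ids and Npc1 were lower in polysome than in total mRNA with both treatments. The values of Ids given above amount to log2 ratios of -1.04 ± 0.08 with Torin1 (adjusted p = 2.22e-06) and -1.07 ± 0.08 with DMSO (adjusted p = 1.51e-06), and its polysome libraries all lay below its total libraries. Npc1 had log2 ratios of -0.59 ± 0.16 with Torin1 (adjusted p = 0.0105) and -0.70 ± 0.16 with DMSO (adjusted p = 0.00340). Idua was also lower with Torin1, at 0.401, 0.512 and 0.779 ppm in polysome against 1.37, 1.98 and 1.56 ppm in total libraries, a log2 ratio of -1.47 ± 0.35 (adjusted p = 0.00516). With DMSO its ratio of -0.51 ± 0.35 did not pass, and the difference between the treatments of -0.97 ± 0.50 did not pass either.

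By class, 5 of the 7 proteases were higher in polysome mRNA with Torin1 and 5 with DMSO, and 0 were lower with either. Over all genes 20.7% were higher with Torin1 and 21.8% with DMSO, and 19.1% and 19.3% were lower. Of the 11 glycosidases 6 were higher with each treatment, and Idua was the 1 that was lower, with Torin1. All 4 lipid and acyl hydrolases were higher with Torin1 and 2 with DMSO. Of the 4 soluble cofactors 2 were higher with each. Among the 9 membrane proteins 3 were higher and 1, Npc1, was lower with each, the 3 being Cd63, Lamp1 and Cln3. For Lamp1 the log2 ratios were 0.36 ± 0.06 with Torin1 and 0.52 ± 0.06 with DMSO. Among the sulfatases 1 was higher with Torin1 (Galns) and 0 with DMSO, and Ids was lower with each. High loading was also seen in other lysosomal lists, described below. Of 19 vacuolar ATPase genes 12 were higher and 0 lower with Torin1 (median 0.50). With DMSO 13 were higher and 1 lower (median 0.64). Of 24 genes of lysosome tethering and position 12 were higher with each treatment. In the remaining lists 15.4% to 36.7% were higher with Torin1 and 15.4% to 44.4% with DMSO.

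**Figure D3:**
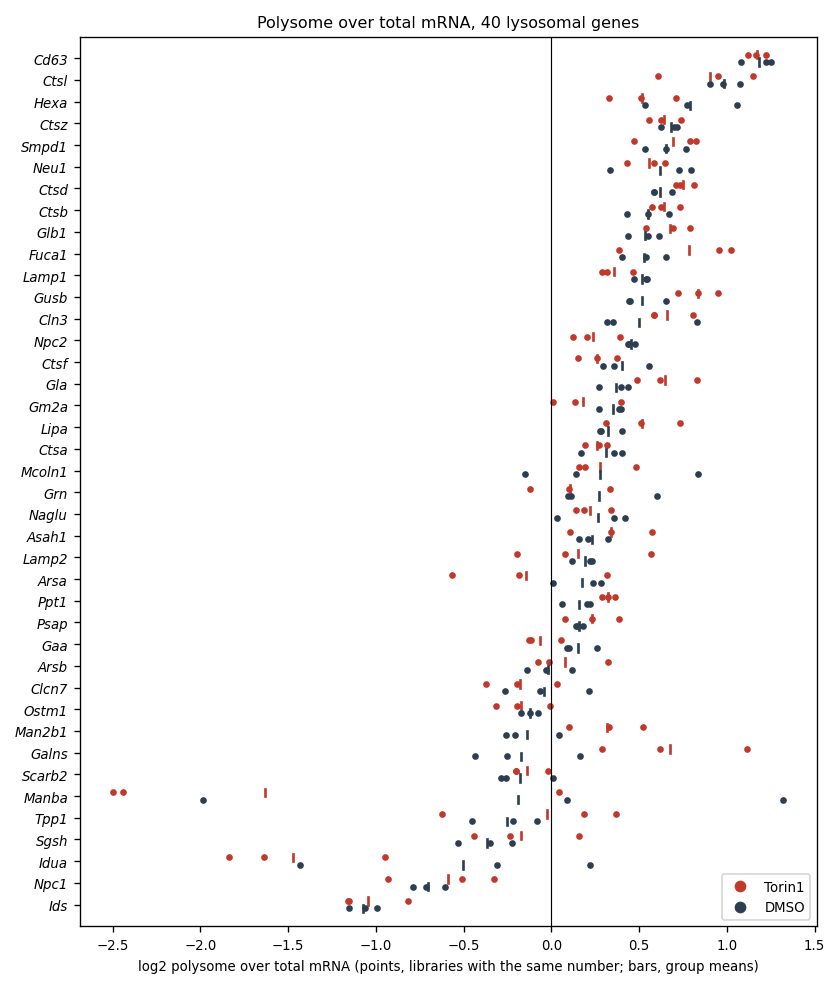
Log2 ratio of polysome over total mRNA for the 40 genes, ordered by the ratio with DMSO, with Torin1 (red) above DMSO (blue) in each row. Points are libraries paired by replicate number for display and bars are group means. Cd63 and Ctsl lie at the top, and Npc1 and Ids lie at the bottom by the ratio with DMSO. Manba and Idua had the lowest means with Torin1. Points of Manba with either treatment, and of Idua with DMSO, are spread over more than 1 unit.

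Other lysosomal lists were read beside the 40 genes. Over all genes 3.33% rose and 4.15% fell in total mRNA, and 4.40% rose and 6.27% fell in polysome mRNA. Of 29 other hydrolases tested, 3 rose and 1 fell in total mRNA, and 4 rose and 1 fell in polysome mRNA. The largest rises were those of Siae, a sialic acid esterase, in total mRNA (log2 fold 0.76 ± 0.18) and of Ctso, a cysteine cathepsin, in polysome mRNA (0.97 ± 0.22). Dpp7, a dipeptidyl peptidase, rose in both, to 6.94 ± 1.18 ppm in total Torin1 libraries against 4.37 ± 0.840 ppm in total DMSO libraries, and to 7.47 ± 0.912 ppm in polysome Torin1 libraries against 4.00 ± 0.363 ppm in polysome DMSO libraries (SD, n = 3 each). The 1 that fell in both was the hyaluronidase Hyal2, with log2 folds of -0.39 ± 0.08 and -0.30 ± 0.08.

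Of 29 other membrane proteins 3 rose in total mRNA and 3 in polysome mRNA, and 0 fell. Ap3b1, a subunit of the AP-3 adaptor that carries membrane proteins to lysosomes, rose to 24.4 ± 0.854 ppm in total Torin1 libraries against 14.9 ± 0.664 ppm in total DMSO libraries (log2 fold 0.71 ± 0.10, adjusted p = 0.00131). The potassium and proton channel Tmem175 rose in total mRNA (0.64 ± 0.16) and the cystine transporter Ctns in polysome mRNA (0.65 ± 0.15). None of the 19 subunits and partners of the vacuolar ATPase, the proton pump of the lysosome, passed in either. At an unadjusted p of 0.05, 5 and 7 of them passed, where 21.2% and 24.5% of all genes did. Its subunit Atp6v1g1 had log2 folds of -0.01 ± 0.12 in total and -0.07 ± 0.12 in polysome mRNA.

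Of 18 genes of mannose 6-phosphate tagging and sorting, Gnptg, a subunit of the enzyme that makes the tag, rose in total (0.27 ± 0.07) and in polysome mRNA (0.26 ± 0.07), and Ap1b1, an AP-1 adaptor subunit, rose in polysome mRNA (0.40 ± 0.07). Of 24 genes of lysosome tethering and position, 0 rose and 1 fell in total mRNA, and 1 rose and 1 fell in polysome mRNA. Borcs6, a subunit of the complex that moves lysosomes along microtubules, fell in both (-0.84 ± 0.13 and -0.76 ± 0.13), and the tethering subunit Vps11 rose in polysome mRNA (0.38 ± 0.11).

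Among 13 regulators, Foxo1 and Foxo3, transcription factors held back by AKT downstream of mTORC2, rose in both kinds of mRNA. Foxo1 had 5.66 ± 0.342 ppm in total Torin1 libraries and 2.47 ± 0.222 ppm in total DMSO libraries (SD, n = 3 each), a log2 fold of 1.18 ± 0.17 (adjusted p = 0.00165), and its polysome fold was 1.04 ± 0.17. Tfeb itself fell in polysome mRNA, with 0.563 ± 0.145 ppm in Torin1 libraries and 1.41 ± 0.0554 ppm in DMSO libraries (SD, n = 3 each), a log2 fold of -1.26 ± 0.36 (adjusted p = 0.0427) at a low level. Its total mRNA was as far apart, at 0.495 ± 0.251 ppm in Torin1 libraries and 1.17 ± 0.107 ppm in DMSO libraries (SD, n = 3 each), and the log2 fold of -1.26 ± 0.36 narrowly missed the threshold (adjusted p = 0.0538). Of 30 autophagy genes 2 rose and 1 fell in total mRNA, and 4 rose and 2 fell in polysome mRNA. Nbr1, an autophagy receptor, rose in both (0.37 ± 0.08 and 0.54 ± 0.08), Atg14, a subunit of the lipid kinase complex that starts autophagosomes, rose in polysome mRNA (1.12 ± 0.15), and Atg5, of the conjugation machinery, fell in total mRNA (-0.39 ± 0.11).

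**Figure D4:**
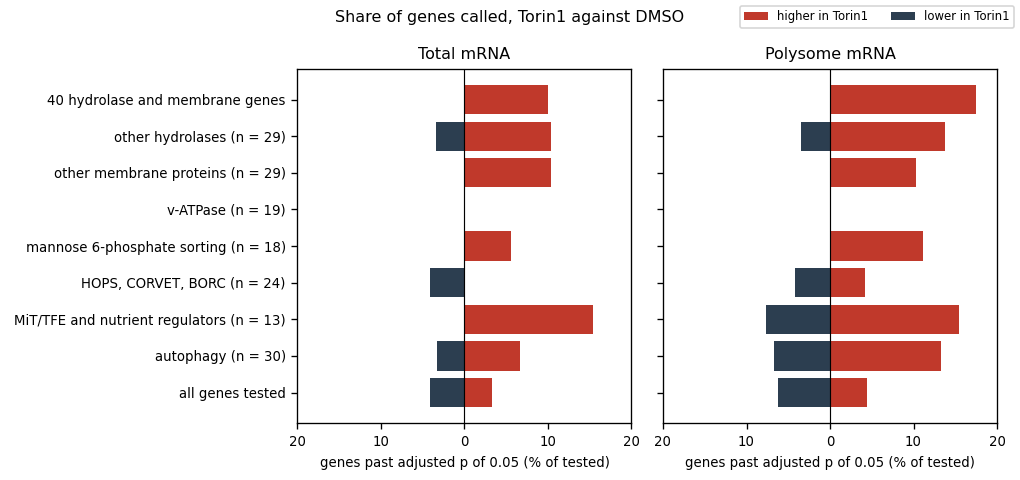
Share of the tested genes that passed an adjusted p of 0.05, higher with Torin1 to the right (red) and lower to the left (blue), for the 40 genes, the other lysosomal lists and all genes, in total (left) and polysome mRNA (right). The 40 genes have a bar to the right only, of 4 genes in total and 7 in polysome mRNA, and the vacuolar ATPase has no bar.

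Microglia and macrophages are rich in lysosomal mRNAs, so their markers were read in the same libraries. Of 16 such markers 0 passed in total or in polysome mRNA (limma). At an unadjusted p of 0.05, 2 passed in each, where 21.2% and 24.5% of all genes did. Beside median log2 folds of 0.13 (total) and 0.16 (polysome) for the 40 genes, the marker list had 0.17 in both. Of its 16 folds 12 were positive in total and 11 in polysome mRNA. The list shares Ctss, Laptm5 and Cd68 with the lists of other hydrolases and membrane proteins above. It summed to 29.6 to 40.5 ppm in total Torin1 and 25.6 to 32.6 ppm in total DMSO libraries, and to 48.7 to 64.5 ppm in polysome Torin1 and 44.8 to 59.0 ppm in polysome DMSO libraries. Levels differed by marker. P2ry12 was between 0 and 0.450 ppm in all 12 libraries, and Mrc1 between 0.0905 and 0.326 ppm. Tyrobp was between 4.06 and 16.9 ppm, Fcer1g between 1.86 and 8.32 ppm and C1qb between 1.74 and 7.96 ppm. Of 16 markers of endothelial, mural and meningeal cells, 4 rose in total and 3 in polysome mRNA, where 3.33% and 4.40% of all genes rose. They summed to 72.1 to 86.4 ppm in total Torin1 and 45.4 to 53.7 ppm in total DMSO libraries, and to 77.6 to 96.6 ppm in polysome Torin1 and 57.0 to 66.2 ppm in polysome DMSO libraries, without overlap. Of the 7 intermediate progenitor markers 5 rose in total and 6 in polysome mRNA, with sums of 356 to 363 ppm in total Torin1 and 262 to 274 ppm in total DMSO libraries, and of 302 to 357 ppm in polysome Torin1 and 242 to 247 ppm in polysome DMSO libraries. Of 8 ventral and interneuron markers 2 rose in each, with sums of 273 to 284 ppm in total Torin1 and 223 to 238 ppm in total DMSO libraries, and of 222 to 253 ppm in polysome Torin1 and 194 to 207 ppm in polysome DMSO libraries. Oligodendrocyte and astrocyte markers, of which 1 of 10 rose in each, summed to 151 to 170 ppm in total Torin1 and 130.0 to 136 ppm in total DMSO libraries, and to 171 to 211 ppm in polysome Torin1 and 158 to 163 ppm in polysome DMSO libraries. The sums of these 3 lists did not overlap between treatments in either kind of mRNA.

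Of 11 radial glia markers 4 rose in total and 5 in polysome mRNA, of 10 neuron markers 2 rose in each, and of 8 erythroid markers 0 rose in total and 1 in polysome mRNA, with 1 past an unadjusted p of 0.05 in total mRNA (limma). Summed levels of these 3 lists were higher in every total Torin1 library than in every total DMSO library. Radial glia markers summed to 4016 to 4115 ppm in total Torin1 and 3501 to 3587 ppm in total DMSO libraries, neuron markers to 3298 to 3396 ppm against 3096 to 3161 ppm, and erythroid markers to 1633 to 1906 ppm against 1505 to 1615 ppm. The radial glia sum leans on abundant genes that moved in opposite directions. Vim had means of 1697 ppm in total Torin1 and 1119 ppm in total DMSO libraries, and Fabp7 had 1853 and 2018 ppm. Of the 11 radial glia markers 9 had a positive fold in total mRNA. In polysome mRNA the radial glia, neuron and erythroid sums overlapped between Torin1 and DMSO libraries. No listed marker was at 0 in all libraries. The part of these cell types in the rises of the hydrolase genes was not tested.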

How the data were processed

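RNA of 12 libraries was measured by sequencing, 4 groups of 3 biological replicates per the labels, and titles gave each sample its group. STAR 2.7.9a, HTSeq 0.6.0 and mm10 are listed in the submitters' processing notes, without saying what each was used for. The deposited table gives a signal per gene for 53351 genes in 12 sample columns, with 0 other sample columns, and the authors' scaling is not stated in the labels or the table. Its values are not read counts, so the depth in reads is unknown and no counting interval is given.

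The design provided for a count test if the values were counts. Since they are not, its test for other values was used. Each library was scaled by its column total times a trimmed mean of log ratios without weights (trimmed shares 0.3 of ratios and 0.05 of abundances, reference library the one whose upper quartile is nearest the mean). A gene entered the tests if 3 or more libraries had a deposited value of 1 or above. The model was fitted with limma 3.58.1 (R 4.3.3) to log2(value + 1) at the mean column total, over all 12 libraries, with 4 group means, 8 residual degrees of freedom and variances that follow abundance. A fold on this scale understates changes at very low values. P-values were adjusted by Benjamini-Hochberg over all 20240 genes within each of 5 comparisons. Intervals are at 95%.

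The members, classes and lists were chosen with earlier results of these data known, and lists are given as counts and medians without a test. Values are given per library for members past the threshold in a Torin1 comparison, for the most abundant of each class and for a few set genes (Lamp1, Ctsd, Ctsb, Hexa, Grn, Npc1, Mcoln1), and for loading up to 4 of the highest and of the lowest past the threshold, in at least 1 treatment. From other lists the 2 largest folds past the threshold are named, or the most abundant gene where none passed, and values of Manba, Idua, Cd63, Dpp7, Tfeb and a few others were added after they were seen. Promoter windows and gene spans come from RefSeq's tables for GRCm38.p6, whose assembly is that of mm10. The fit was tested on simulated data.

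Replicate numbers were not treated as pairs, since correlations of same-numbered deviations ran from -0.24 to 0.22. Alternatives were 2 other scalings, pseudocounts, filters, fits of the compared groups alone, a replicate block, variances without a trend and each library left out. Each library as the scaling reference was added after seeing the data.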

Additional observations from a re-analysis of the deposited data

How the results depend on the processing

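Counts of members past the threshold held within 1.5 times of those given under most alternatives. Scaling to the column total alone gave 1 higher in total mRNA and 14 in polysome mRNA with Torin1, 5 lower for loading with Torin1, and 4 higher and 7 lower for loading with DMSO. Under it the loading with DMSO reversed for Ctsa (-0.10), Gla (-0.0381), Ppt1 (-0.25) and Gm2a (-0.0556), and the scaling by itself shifts the median loading of all genes by -0.36. Fitting only the polysome groups, which leaves fewer libraries to estimate the spread, gave 0 higher in polysome mRNA. It also leaves out the total libraries, whose spread the main fit pools with theirs. Polysome Torin1 libraries had a larger SD than total Torin1 libraries for Ctsd, Naglu, Gla, Lipa, Ppt1 and Psap (27.0 against 1.55 ppm for Psap). For Ctsa it was smaller (0.989 against 1.28 ppm). What accounts for the lost calls was not tested. With each library left out in turn, 2 to 4 members were higher in total mRNA (2 without total DMSO replicate 1 or total Torin1 replicate 2) and 3 to 7 in polysome mRNA (3 without polysome DMSO replicate 1 or polysome Torin1 replicate 2, 4 without polysome DMSO replicate 2). For loading the ranges were 17 to 19 higher and 3 to 4 lower with Torin1, and 14 to 16 higher and 2 to 3 lower with DMSO. With a replicate block 3 members were higher in total and 6 in polysome mRNA, where Grn and Lipa lost their calls, and loading gave 20 higher and 3 lower with Torin1 and 15 higher and 2 lower with DMSO. No member passed for the difference between the folds under any alternative run. The depth in reads is unknown, so how far it limits the low genes (Naglu, Idua, Manba) was not tested.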
